A study of Rattus norvegicus with 29 samples.

Results

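The regions described here are the 1000 open chromatin regions (OCRs), of 98237 in the consensus set of the study, that were more open in CA (Ammon's horn) than in DG (the dentate gyrus) in saline-injected rats. They were selected on the raw OCR counts of 8 saline libraries: counts were divided by the column sum and put on the CPM scale, so that libraries of unequal depth can be compared, and regions were ranked by the mean of log2(CPM + 0.5) in 4 CA libraries minus the mean in 4 DG libraries. Chromatin accessibility was measured by omni-ATAC-seq, in which a transposase cuts and tags DNA that is not packed away, so that reads pile up over promoters and enhancers. Tissue came from adult male Sprague-Dawley rats that received 4 intraperitoneal injections, 2 h apart, of methamphetamine hydrochloride (METH, 10 mg/kg) or saline (1 mL/kg), and was taken the day after. The nucleus accumbens (NAc), DG and CA gave 4 saline and 4 METH libraries each, and the subventricular zone (SVZ) gave 3 saline and 2 METH libraries, 29 in all. Each library is punched or dissected tissue of a single rat, a mixture of neurons and glia, so fewer cells of a type and less open chromatin per cell cannot be told apart.

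CA and DG are neighbouring parts of the hippocampal formation. DG holds densely packed granule neurons that send mossy fibres to the CA3 field, and CA holds the pyramidal neurons that carry the signal onward through CA1. The 2 neuron types keep distinct sets of enhancers open, and the NAc, with its GABAergic spiny projection neurons, and the SVZ, a neurogenic layer along the lateral ventricle, provide an outside reference. Gene positions on rn6, the build of the files, were not used here, so the labelled tissues could not be checked against marker genes and most regions are named by position alone.

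Before the results, the libraries themselves need a description. Library totals over the OCRs ran from 7.55 M to 19.4 M counts (M, mega), and the CA libraries, with group means of 15.9 M in both treatments, were deeper than the DG libraries, with means of 11.2 M in saline and 12.1 M in METH rats. The names of the deposited peaks show that CA and DG libraries of the same number came from the same rat, and carry a library tag in 2 spellings, tag 1 for replicates 1 and 2 and tag 2 for replicates 3 and 4 of CA, DG and NAc. In SVZ, saline replicate 1 carried tag 1, and saline replicates 2 and 3 and both METH libraries carried tag 2. Comparisons of NAc with SVZ, and of METH with saline in SVZ, are thus not balanced for the tag. Without correction for unwanted variation, the 16 CA and DG libraries did not fully separate by their region label. Over all OCRs, 11 had their highest rank correlation with a library of the same region and 5 with one of the other. The study, which corrected its counts with RUVr, reports that principal components set the 4 brain regions apart. The DG METH libraries of replicates 1 and 4 were most like each other (Spearman rho 0.82), and had peaks at only 2.8% and 3.4% of the 1000 regions at the opposite end of the ranking, those most open in DG over CA in saline rats, where the other 2 DG METH libraries had 53.7% and 49.9%. The share of counts in the top 10% of OCRs, a measure of signal over background, was 62.4% and 56.9% in those 2 libraries and 59.0% and 47.1% in the other 2. A fit with this share as a covariate is given beside the results. CA saline replicate 2, which the rule used, was most like DG METH replicate 1 (rho 0.798), with a mean rho of -0.034 to the other CA libraries and 0.197 to the DG libraries, and had peaks at 5.8% of the regions of the opposite end. The study reports more regions that closed than opened in DG after METH, and opposite responses of CA and DG. How far such a response accounts for the DG METH libraries that stood apart was not tested. The labels of CA and DG libraries could not be checked against marker genes here, so whether any of them were exchanged is not known, and every CA over DG value below rests on the labels. Main results are given with and without the libraries that stood apart.

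By construction the members differed between CA and DG in saline rats, and these values are a description with no test. The difference was 1.18 log2 units at the top and 0.5631 at rank 1000, with a median of 0.63 (quartiles 0.59 and 0.69). Only 7 regions passed 1 log2 unit. The last members were chr12:23143964-23144642 at 0.56312 and chr1:252509803-252510316 at 0.5631, and the first regions left out were chr18:87577126-87577452 at 0.56305 and chr5:148376982-148377400 at 0.56301, so the edge of the set follows no break in the values. Over all OCRs the median saline difference was -0.04.

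The members' saline difference was rarely the same in all rats. In 384 of the 1000 members CA lay above DG in each of the 4 saline rats, and in 39 all CA saline libraries lay above all DG saline libraries. The median member difference within a rat was 1.26, 0.72, 0.49 and 0.12 log2 units in saline replicates 1 to 4. The difference was thus high in the tag 1 rats and close to the all-OCR median of 0.04 in saline replicate 4. Leaving 1 of the 8 saline libraries out of the ranking kept between 330 and 601 of the 1000 regions, the fewest without CA saline replicate 2 and the most without DG saline replicate 4. The direction of the 1000 regions in METH rats turned with that choice. Their median METH difference was -0.04 with all saline libraries. It was 0.80 without CA saline replicate 2, 0.60 without CA saline replicate 1, 0.43 without DG saline replicate 1, 0.64 without DG saline replicate 3 and 0.44 without DG saline replicate 4, and it was -0.49 without CA saline replicate 3, -0.48 without CA saline replicate 4 and -0.49 without DG saline replicate 2.

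The 2 tag groups picked out different members. With a minimum of 0.3 log2 units, set after the values were seen, 460 members were higher in CA in both tag groups, 478 in tag 1 alone and 62 in tag 2 alone. In the 478 the median saline difference was 1.33 in tag 1 rats and -0.04 in tag 2 rats, and in the 460 it was 0.71 and 0.59. DG saline replicate 1 stood out at the members: their median level there was 1.47 CPM, against 2.38 to 3.15 CPM in DG saline replicates 2 to 4, and 14.1% of them had a peak, against 44.1%, 30.6% and 43.1%.

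**Figure D1:**
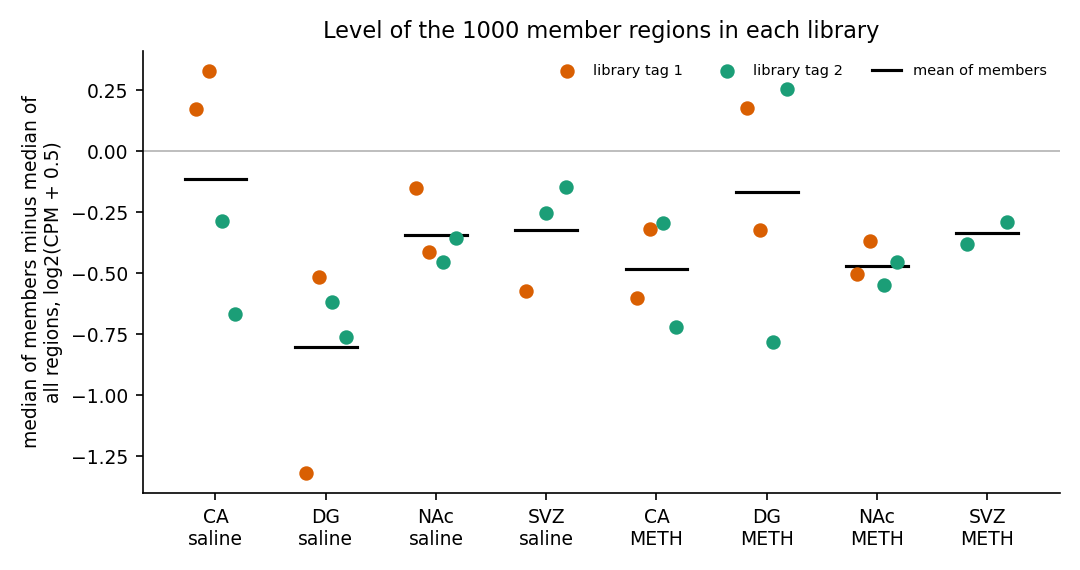
Median level of the 1000 members minus the median of all OCRs, in log2(CPM + 0.5), for each library (points, coloured by library tag), with the mean of each group (bar). The mean of CA saline lies above that of DG saline because the rule chose it, but CA saline replicate 4 lies below DG saline replicates 2 and 3. In the METH libraries, which the rule did not use, DG replicates 1 and 4 lie above all CA METH libraries and DG replicate 3 lies below all of them.

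The METH libraries of CA and DG were not used by the rule, so the same difference could be tested there. No member and no other OCR passed the main test, so it cannot say whether the members keep their difference in METH rats. The name of the set as more open in CA rests on the saline libraries that chose it. No member was called higher in CA METH than in DG METH at the threshold the study set between brain regions, a fold above 2 and an FDR under 0.01, and none at an FDR under 0.05 (edgeR quasi-likelihood test, Benjamini-Hochberg over all 98237 OCRs). No OCR of the whole table passed either, a background of 0.0%, and the lowest adjusted p among the members was 0.397. DESeq2 also called 0 members at either threshold. With 3 RUVr factors, the kind of correction for unwanted variation the study used, the call changed: 22 members were called higher in CA (2.2%, against 4.03% of all OCRs) and 8 lower (0.8%, against 0.303%), and at an FDR under 0.05 the counts were 90 higher (against 15.3%) and 143 lower (against 10.8%). At an unadjusted p under 0.05, edgeR found 50 members higher in CA (5.0%, against 7.01% of all OCRs) and 64 lower (6.4%, against 4.96%). DESeq2 found 46 and 196. No share over all OCRs is given here for DESeq2, so these counts do not set the members against other OCRs. The split moved with the scaling, and so did that of all OCRs. Column sums gave 62 higher (against 9.64%) and 21 lower (against 2.12%). Loess offsets gave 24 higher (against 4.99%) and 196 lower (against 8.03%).

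The fitted CA over DG log2 fold change in METH libraries had a median of -0.26 over the members (quartiles -0.72 and 0.52) and of 0.10 over all OCRs. The median standard error for a member was 0.50. Column sums shift all OCRs by about 0.15 against the upper-quartile scale, so the members are also given relative to all OCRs: on the log2(CPM + 0.5) scale the distance was -0.29 by column sums, -0.30 by TMM and -0.29 by upper quartile. It was not steady under other choices. With loess offsets the fitted medians were -0.52 for members and 0.01 for all OCRs. With the share of counts in the top 10% of OCRs as a covariate they were -0.02 and 0.05. That covariate left 7 members higher (against 2.14% of all OCRs) and 5 lower (against 0.894%) at an unadjusted p under 0.05 in edgeR. On the column-sum scale the medians were 0.06 and 0.21 without DG METH replicate 4, -0.01 and 0.16 without DG METH replicate 1, and -0.10 and 0.40 without DG METH replicate 3. In the saline libraries that chose them, the members had stood 0.67 above. Regions of the opposite end, chosen for being higher in DG in saline, had a median METH difference of 0.89, that is, higher in CA. Within METH rats 1 to 4 that median was 2.44, -0.20, -0.36 and 1.72, and the fitted median fell from 0.71 to 0.10 without DG METH replicates 1 and 4.

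**Figure D2:**
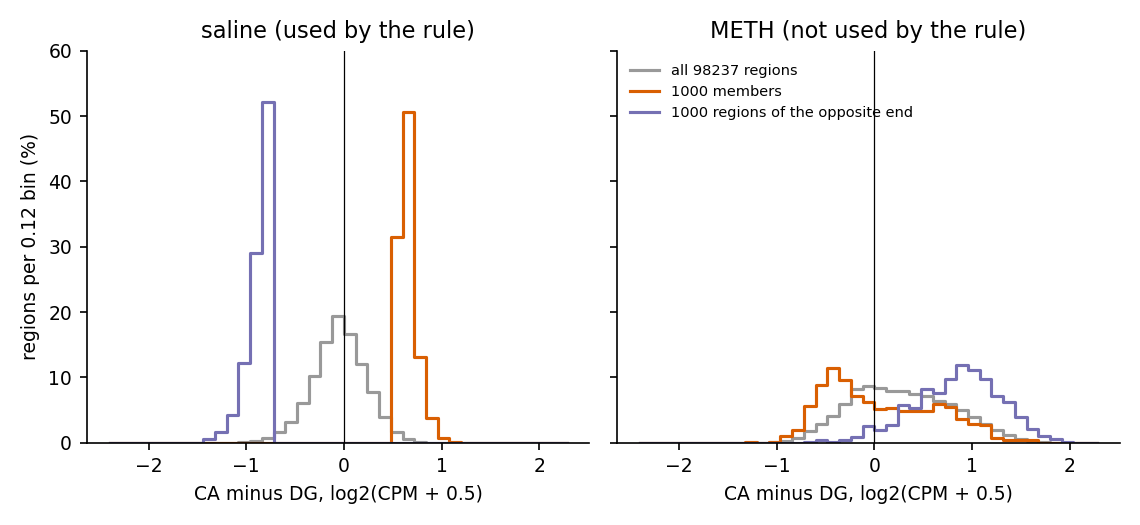
Share of regions by their CA minus DG difference in log2(CPM + 0.5), in saline libraries (left, used by the rule) and METH libraries (right, not used). In METH libraries the members (orange) spread from below -1 to above 1 around a median of -0.04, against 0.25 for all OCRs (grey) and 0.89 for the opposite end (purple).

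The members did not move as 1 group in METH rats. By level, 346 members (34.6%, against 46.9% of all OCRs) were more than 0.3 log2 units higher in CA, 340 (34.0%, against 12.5%) were more than 0.3 lower, and 314 lay between. The 2 kinds followed the split of the saline rats. The 460 members higher in both saline tag groups had a median METH difference of 0.45 and lay above 0 in 349 cases (75.9%, against 67.2% of all OCRs). The 478 members of tag 1 alone had a median of -0.39, with 72 above 0 (15.1%). The 62 members of tag 2 alone had a median of 0.58, with 56 above 0 (90.3%).

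OCRs outside the set that had the same saline pattern showed much the same METH values. Among non-members, the 1111 OCRs higher by 0.3 in both tag groups had a median METH difference of 0.37, the 19157 of tag 1 alone -0.27 and the 19443 of tag 2 alone 0.68. In that order, 79.7%, 24.2% and 94.9% of them lay above 0. The members' METH differences are therefore read beside these, and whether the set differs from such OCRs was not tested.

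Within each METH rat the median member difference was -0.20, 0.10, 0.39 and -0.34 in replicates 1 to 4, while the all-OCR median was 0.35, 0.09, -0.03 and 0.50. The members thus lay below all OCRs in rats 1 and 4, the rats whose DG libraries stood apart, and level with or above them in rats 2 and 3. For the 478 members of tag 1 alone the values were -0.55, 0.03, 0.55 and -1.55, and for the 460 of both tag groups 0.37, 0.20, 0.21 and 0.81. The latter, like the 62 of tag 2 alone (0.58, 0.23, 0.09 and 1.28), were above 0 in every METH rat. Without DG METH replicates 1 and 4 the fitted median was 0.00 for the members and -0.04 for all OCRs, and still no member was called. Among libraries of tag 1 and of tag 2 taken alone, the fitted medians were -0.26 and -0.28, with 0 members called in each. With the rat as a block the median was -0.26 and again none was called.

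**Figure D3:**
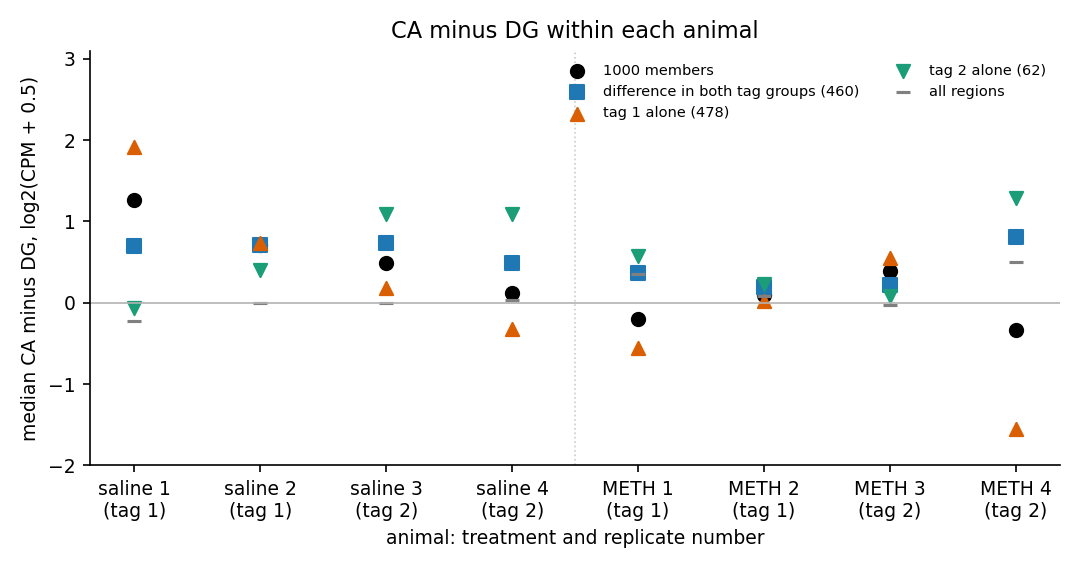
Median CA minus DG difference in log2(CPM + 0.5) within each rat, for all members (circles), the members split by the saline tag groups (squares and triangles) and all OCRs (dashes). The members of tag 1 alone run from 1.92 in saline replicate 1 to -1.55 in METH replicate 4, while the members of both tag groups stay between 0.20 and 0.81.

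Complete separation of the METH libraries was rare at the members. All 4 CA METH libraries lay above all 4 DG METH libraries at 16 members (1.6%, against 2.03% of all OCRs) and below them at 7 (0.7%, against 0.837%), on the upper-quartile scale. Of the 16, 13 were members of both tag groups. CA lay above DG within each of the 4 METH rats at 153 members (15.3%, against 13.0% of all OCRs), and at 93 of them it did so in every saline rat too. The count of 16 depended on single libraries and was 78 without DG METH replicate 3, 45 without CA METH replicate 2, 39 without CA METH replicate 1 and 33 without DG METH replicate 2. On the column-sum scale, where the shares over all OCRs were computed, the counts without these libraries, in that order, were 133 (13.3%, against 21.7%), 57 (5.7%, against 8.56%), 37 (3.7%, against 4.10%) and 32 (3.2%, against 3.96%).

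The 8 separated members with the lowest p each missed the adjusted threshold, with adjusted p = 0.397 in edgeR for every one. At chr3:11123341-11124576, a wide region of 1236 bp, CA METH libraries had 6.23, 3.90, 9.43 and 9.75 CPM and DG METH libraries 2.17, 2.63, 3.87 and 2.31 CPM. The lowest CA library barely exceeded the highest DG library, and the fitted log2 fold change was 1.25 (SE 0.36). In saline rats the same region had 5.18, 3.44, 12.5 and 10.0 CPM in CA and 3.13, 2.46, 6.96 and 5.82 CPM in DG, so the groups overlapped where the region was chosen. At chr5:156899230-156899567 CA METH libraries had 4.93, 2.15, 2.34 and 4.77 CPM and DG METH libraries 0.701, 0.948, 1.61 and 0.711 CPM, a log2 fold change of 1.68 (SE 0.53). CA was above DG here by a wider margin, but the DG METH libraries held only 8 to 15 counts each. The other 6 were chr12:37567107-37568342, chr1:24046085-24046706, chr7:123220579-123221332, chr6:128640923-128641693, chr6:37972193-37972860 and chr6:34405102-34405473, with log2 fold changes from 0.80 to 1.60. In 7 of the 8, CA was higher by at least 0.3 in both saline tag groups.

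At the other end, 3 members had the most negative fold changes in METH rats. At chr2:18880165-18880650, with a log2 fold change of -1.69 (SE 0.67), CA METH libraries had 1.14, 2.62, 0.746 and 0.262 CPM and DG METH libraries 5.05, 3.58, 1.18 and 3.47 CPM. At chr6:8757300-8757970 the fold change was -1.59 (SE 0.50), with DG METH replicates 1 and 4 at 7.29 and 8.89 CPM and replicates 2 and 3 at 2.70 and 1.94 CPM. The high DG values were those of the libraries that stood apart. At chr12:27044735-27045393 it was -1.53 (SE 0.62). In saline rats each of these 3 was higher in CA in tag 1, by 1.34 log2 units or more, and not in tag 2, with differences of -0.12, 0.12 and -0.31.

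The 8 members with the largest saline difference show how varied the set is. The region ranked 1, chr10:104134270-104134907, had 2.53, 2.83, 3.59 and 5.97 CPM in CA saline and 0.83, 0.0819, 2.72 and 3.54 CPM in DG saline. DG saline replicate 2 held a single count there, while the 2 tag 2 DG libraries overlapped CA. In METH rats CA had 3.34, 0.477, 2.98 and 2.62 CPM and DG 1.05, 2.04, 2.26 and 0.80 CPM, again overlapping. Its highest levels were outside the hippocampus, at 8.27 ± 1.55 CPM (SD, n = 4) in NAc saline and 7.40 ± 4.98 CPM (SD, n = 3) in SVZ saline.

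The same order, with NAc and SVZ above CA and CA above DG, held at ranks 4 and 5. At chr18:75243129-75243807, rank 4, DG METH libraries had 0.281 to 0.968 CPM, CA METH libraries 0.875 to 2.24 CPM and NAc METH libraries 2.06 to 11.7 CPM. No DG or NAc library overlapped, and DG was called lower than NAc (log2 fold change -3.12, SE 0.51, adjusted p = 2.8e-04 in edgeR), as was CA (-2.27, SE 0.47, adjusted p = 0.00137). At chr6:137565696-137566290, rank 5, DG METH was also called lower than NAc METH (-3.00, SE 0.62, adjusted p = 0.00168).

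Ranks 2 and 3 did not follow that order. At chr16:86897653-86898179, rank 2, CA saline had 2.33, 1.15, 10.1 and 3.24 CPM, so that replicate 3 carried most of the mean, and NAc and SVZ libraries had 0.29 to 1.44 CPM. Its DG METH replicate 3 had 5.27 CPM, above all 4 CA METH libraries. At chr18:1637063-1637649, rank 3, CA METH had 1.75, 2.39, 6.55 and 5.29 CPM and DG METH 0.631, 1.97, 3.33 and 0.622 CPM, with CA above DG in every METH rat and a log2 fold change of 1.18 (SE 0.56). Ranks 6, 7 and 8, chr8:31864965-31865269, chr11:73645642-73646039 and chr18:20734539-20734914, had METH fold changes of -0.25, -0.85 and -0.60 and were narrow, at 305 to 398 bp.

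**Figure D4:**
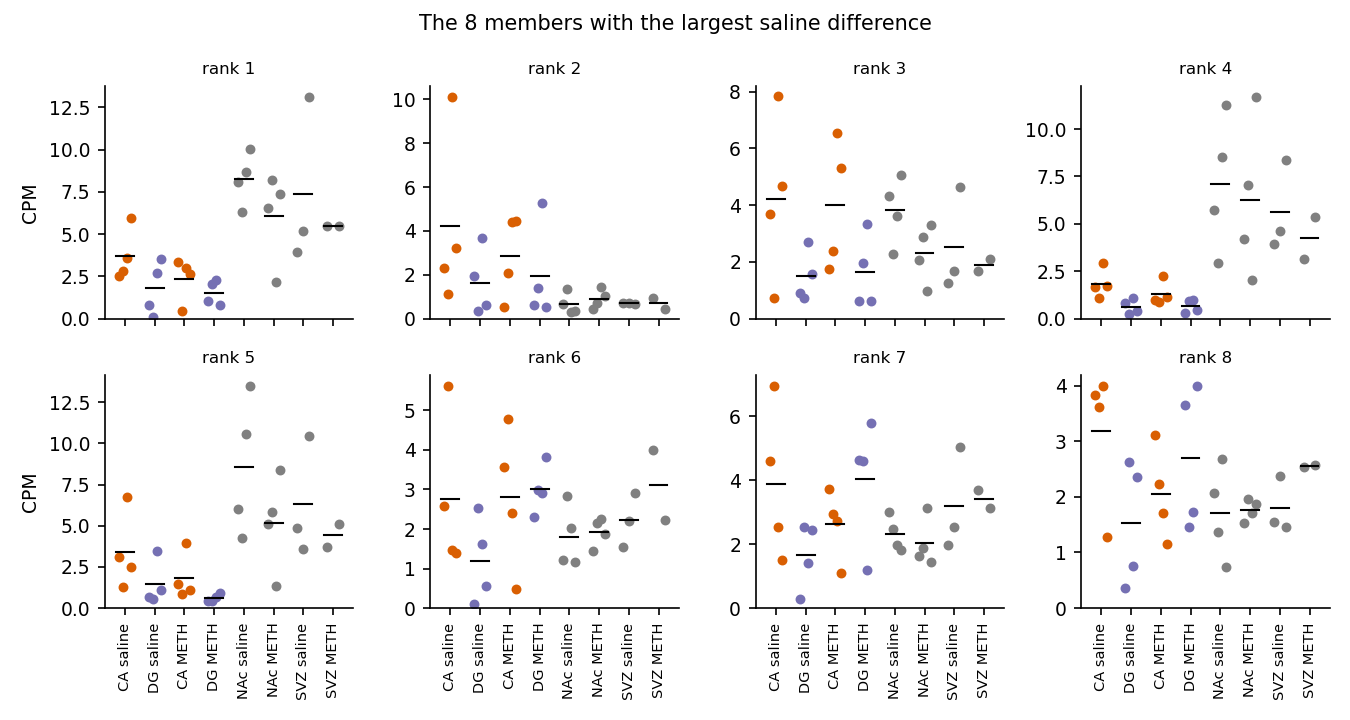
CPM in every library at the 8 members with the largest saline difference, by group (CA orange, DG purple, NAc and SVZ grey), with group means (bars) and an axis from 0 in each panel. Group means of NAc and SVZ lie above those of CA and DG at ranks 1, 4 and 5, and below CA at rank 2. CA and DG METH libraries overlap in all 8 panels.

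Against the NAc, members went both ways. In METH libraries 90 members were called lower in DG than in NAc (9.0%, against 6.22% of all OCRs) and 10 higher (1.0%, against 0.982%). CA was called lower than NAc at 78 members (7.8%, against 5.15%) and higher at 39 (3.9%, against 5.0%). The 2 comparisons share the NAc METH libraries. Loess offsets gave 24 higher (against 2.03%) and 80 lower (against 5.59%) for DG, and DESeq2 41 (against 3.01%) and 123 (against 8.45%). The counts fell to 5 higher (0.5%, against 1.85%) and 22 lower (2.2%, against 1.14%) in DG without DG METH replicates 1 and 4. Tag 1 libraries alone called 23 members for DG, all lower (against 1.27%), and 12 for CA, all lower (against 0.477%). Tag 2 libraries alone called 0 in both, against 0.0% of OCRs for DG and 0.00407% higher and 0.00305% lower for CA.

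The 90 members lower in DG than NAc were weakly open throughout the hippocampus. Their median was 0.768 CPM in DG METH, 1.09 CPM in CA METH, 5.30 CPM in NAc METH and 4.47 CPM in SVZ METH. CA METH lay between DG and NAc at 69 of the 90, which were picked for low values in these DG libraries, so the order of CA and DG is partly fixed by the choice, and SVZ METH lay above CA METH at all 90. In these members the saline difference between CA and DG was thus a difference between low levels, 1.49 and 0.766 CPM. Of the 90, 67 belonged to the members of both tag groups and 11 to those of tag 1 alone. The 39 members higher in CA than NAc had medians of 5.40 CPM in CA METH, 3.02 CPM in DG METH, 0.925 CPM in NAc METH and 1.84 CPM in SVZ METH, and CA METH lay above DG METH at all 39, an order that choosing them for high CA METH values partly fixes.

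An example of these 39 among the 8 separated members named above is chr6:128640923-128641693. CA METH had 5.09, 3.66, 7.51 and 6.71 CPM, DG METH 2.38, 2.92, 4.09 and 2.40 CPM and NAc METH 1.08, 0.626, 1.08 and 1.53 CPM. CA was called higher than NAc by 2.33 log2 units (SE 0.35, adjusted p = 1.0e-04 in edgeR), and DG by 1.53 (SE 0.35, adjusted p = 0.00367). The region was thus open across the hippocampus relative to NAc, with CA above DG at an adjusted p of 0.397.

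Levels of the members outside the hippocampus lay between those of CA and DG in saline rats, by the medians. The median member had 3.99 ± 0.60 CPM (SD, n = 4) in CA saline and 2.42 ± 0.71 in DG saline. It had 3.41 ± 0.41 CPM (SD, n = 4) in NAc saline, 2.93 ± 0.44 (n = 4) in NAc METH, 3.60 ± 0.91 (n = 3) in SVZ saline and 3.85 ± 0.23 (n = 2) in SVZ METH. CA and DG METH, at 3.17 ± 0.41 and 3.14 ± 0.55 CPM (n = 4 each), did not differ beyond these spreads. In saline libraries NAc lay between DG and CA at 475 members (against 17.1% of all OCRs) and SVZ at 506 (against 18.3%), orders that the choice on CA and DG saline partly fixes. In METH libraries NAc was below both at 569 members (56.9%, against 36.4%) and above both at 260 (26.0%, against 37.0%).

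Between NAc and SVZ, no member was called at a fold above 2 and an FDR under 0.01, where all OCRs gave 0.0% higher and 0.00916% lower in NAc. At an FDR under 0.05, 6 members were lower in NAc (0.6%, against 1.1%) and 0 higher (against 0.16%), and at an unadjusted p under 0.05, 59 were lower (5.9%, against 6.81%) and 18 higher (1.8%, against 6.11%), in edgeR. NAc and SVZ are not balanced for the library tag. With the tag as a term in the edgeR model, 73 were lower (against 8.28%) and 55 higher (against 7.49%) at that unadjusted p, and 0 were called at the first threshold. The count at the first threshold moved with the fit. With the top 10% share as a covariate 6 members were called higher (0.6%, against 0.344%) and 18 lower (1.8%, against 1.05%), and with 3 RUVr factors 1 was higher (against 0.123%) and 14 lower (1.4%, against 1.90%). DESeq2 called 3, all lower (against 0.765%), the replicate block by label number 2, both lower (against 0.555%), and the block by rat 0. The median log2 fold change of NAc over SVZ was -0.18 for the members and -0.02 for all OCRs.

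The members with the highest levels in both NAc and SVZ were chr14:46329381-46330095 and chr1:11912765-11913211. The former had 96.5 ± 70.8 CPM in NAc saline and 140.2 ± 39.2 CPM in SVZ saline, and the latter 78.5 ± 47.6 and 125.3 ± 49.1 CPM (SD, n = 4 and 3). At chr14:46329381-46330095 the 2 tag 1 NAc saline libraries had 35.6 and 37.8 CPM and the 2 tag 2 libraries 175 and 137 CPM. DG saline had 53.8 and 34.7 CPM in tag 1 and 146 and 130 CPM in tag 2. SVZ saline had 101 CPM in its tag 1 library and 179 and 141 CPM in tag 2, so the NAc and SVZ means above also differ in their mix of tags. In NAc and DG the tag groups were thus further apart at this region than the means of any tissues. With the tag as a term in the model the fitted CA over DG median of the members in METH rats was -0.26, with 0 called. CA METH and DG METH each hold 2 libraries of each tag, so that term could hardly move this median.

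METH against saline was tested in NAc and SVZ, whose libraries the rule did not use. In SVZ both METH libraries carry tag 2 while 1 saline library carries tag 1, so treatment and tag are partly mixed there. With the tag as a term in the model, 0 members were called in either tissue at the threshold given next, and 0.0% of OCRs. No member was called in NAc or in SVZ at the study's threshold, a fold above 1.5 and an FDR under 0.001, and no OCR was (0.0% in each). The main fit leaves out the RUVr step, and the study, which used it, reported differential regions in both tissues at this threshold. With 3 RUVr factors, 0 members and 0.0% of OCRs were called in each. At an unadjusted p under 0.05, edgeR found 2 members higher and 18 lower in NAc METH (0.2% and 1.8%, against 1.03% and 1.42% of all OCRs) and 2 higher and 1 lower in SVZ METH (0.2% and 0.1%, against 1.27% and 2.2%). DESeq2 called 0 members in either. In CA and DG the saline libraries chose the members, so the treatment difference is a description: the median member was 0.26 lower in CA METH than in CA saline and 0.33 higher in DG METH than in DG saline, while all OCRs were 0.06 higher and 0.24 lower. In DG the median was 0.70 for the 478 members of tag 1 alone and 0.03 for the 460 of both tag groups.

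Peak calls gave a second view of the same libraries. A peak overlapped 49.9%, 55.2%, 74.8% and 61.7% of the members in CA METH replicates 1 to 4, and 52.4%, 52.5%, 36.0% and 55.0% in DG METH replicates 1 to 4. CA was ahead by 11.4 ± 18.6 percentage points (SD over 4 rats), which is smaller than the spread, and over all OCRs it was ahead by 15.8 points, 71.9% against 56.1%. A peak in all 4 CA METH libraries and in no DG METH library was found at 3 members, against 465 of the 98237 OCRs, and the reverse at 0 members, against 8 OCRs. Among saline libraries, which chose the members, CA had peaks at 63.9 ± 5.9% and DG at 33.0 ± 14.0% of members. The member with the median number of peaks had one in 13 of 29 libraries, and 59 members (5.9%, against 21.2% of all OCRs) had one in every library. At the opposite end of the ranking the median was 10 libraries, and 0.5% of regions had a peak in every library.

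**Figure D5:**
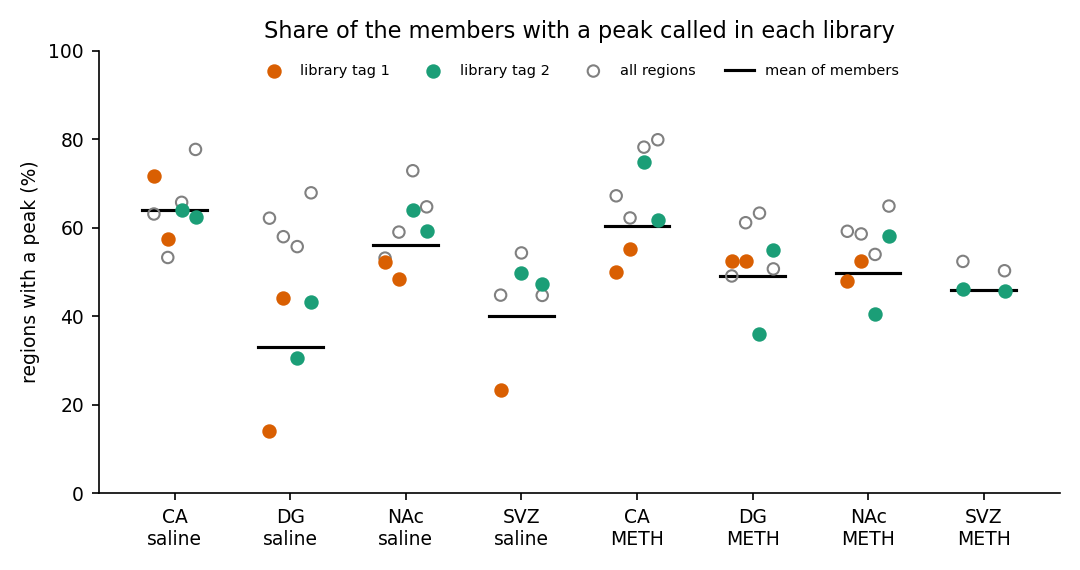
Share of the 1000 members with a peak called in each library (points, coloured by library tag), with group means (bars) and the share of all OCRs (open circles). CA and DG METH libraries overlap, at 49.9% to 74.8% and 36.0% to 55.0%, and DG saline replicate 1 is lowest at 14.1%.

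As a class the members were narrow and weak. Their median width was 541 bp (quartiles 428 and 658), against 662 bp for all OCRs, 183 were under 400 bp (18.3%, against 9.91%) and 27 were 1000 bp or wider (2.7%, against 16.9%). Their mean level over all libraries had a median percentile of 34.0, and 145 fell in the lowest 10% of OCRs and 11 in the highest 10%. A member held a median of 16 to 71 counts per library, so 10 counts more or less is a sizeable part of the value. Among the 331 members in the lowest 20% of OCRs by level the median METH difference was 0.38 (0.55 for all OCRs there), and among the 62 in the highest 20% it was -0.50 (-0.09 for all OCRs there). In each of the 5 classes of 20% the members lay below the all-OCR median.

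The members were spread over 21 chromosomes in much the proportions of all OCRs, with 116 on chromosome 1 (11.6%, against 10.6%), 10 on X (1.0%, against 1.28%) and 0 on Y. They did not cluster in long domains: with gaps of at most 50 kb, 898 stood alone, 48 runs held 2 and 2 runs held 3. The first run of 3, chr10:104134270-104145659, contains the member ranked 1 and no other OCR between its members, and their METH differences ran from -0.47 to 0.38. The second, chr4:159243278-159314356, holds 12 OCRs of which 3 are members, with METH differences from -0.55 to 0.85. In both runs of 3 the members thus differed in direction in METH rats. Of the pairs with the largest mean saline difference, chr17:33856862-33897031 and chr1:176077630-176099439 were above 0 at both members in METH rats (0.14 and 0.39, and 0.75 and 1.07), and chr17:54225659-54271533 was not (-0.19 and 0.53).

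The study pairs 4 of the 1000 members, against 814 of the 98237 OCRs, with a human gene. The pairs come from its list of OCRs whose orthologous human sequence holds a variant associated with a neurological trait. A named gene is thus not a shown target of the region. The member chr3:171316063-171316405 is assigned to PMEPA1, a membrane protein that dampens TGF-beta signalling. It had 1.43, 1.57, 3.35 and 3.14 CPM in CA saline and 1.29, 0.655, 1.20 and 1.89 CPM in DG saline, and in METH rats 1.33 ± 0.535 CPM in CA and 0.939 ± 0.626 CPM in DG (SD, n = 4), which overlapped. NAc saline was above both, at 4.45 ± 1.24 CPM. The member chr5:103577920-103578588 is assigned to SH3GL2, endophilin A1, which shapes the membrane of synaptic vesicles during their retrieval. CA METH had 2.88, 3.98, 3.14 and 4.67 CPM and DG METH 2.17, 2.55, 6.88 and 2.67 CPM, so that only DG METH replicate 3 broke the order CA above DG. The log2 fold change was -0.06 (SE 0.34). The member chr8:87638479-87638924 is assigned to MYO6, a myosin motor that walks towards the minus end of actin filaments and serves endocytosis. It had 3.56 ± 1.22 CPM in CA saline and 2.16 ± 0.58 CPM in DG saline, and 2.36 ± 0.72 and 3.02 ± 1.01 CPM in METH rats, a log2 fold change of -0.53 (SE 0.41). The fourth, chr4:52374087-52374641, lies at a human non-coding transcript and had a log2 fold change of -0.68 (SE 0.53). None of the 4 passed the test, and 2 of them, PMEPA1 and SH3GL2, were members higher in CA in both saline tag groups.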

How the data were processed

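ATAC-seq was measured in 29 libraries of adult male rats. The authors trimmed, aligned and called peaks with the AIAP pipeline, merged peaks of all libraries into a consensus set on rn6 (bedtools per the labels) and deposited raw read counts per OCR, 98237 rows. The deposited peak lists give per library a fold enrichment (a ratio) and -log10 p and q values, with each library called alone.

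Groups follow the labels. All per-sample columns were mapped. Members, the gene assignments looked up and the questions asked were chosen with earlier results of these data known, and the split by library tag and the libraries left out together were chosen after values were seen. Levels are log2(CPM + 0.5) by column sum. Tests used edgeR 4.0.16 (R 4.3.3; upper-quartile scaling, 1 model of 8 groups, filterByExpr, which removed 0 OCRs, robust quasi-likelihood F test, Benjamini-Hochberg over all OCRs); standard errors are the fold change over the root of F. Thresholds between regions and for METH are the study's. The study removed unwanted variation (RUVr) with a number of factors not given in the sources used here; 3 factors, TMM, column sums, loess offsets, DESeq2 1.42.0, other filters, covariates, leave-one-out fits and the replicate block were alternatives. The edgeR step was run on simulated counts with less spread between libraries than these data (common dispersion 0.151 in the main fit). That run therefore does not show which differences these data could reveal. Peaks were assigned to OCRs by an overlap of 1 bp with bedtools.

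The named regions are the 8 members with the largest saline difference, the 8 with the lowest edgeR p among those whose METH libraries were separated (fewer than 4 were called), the 3 with the most negative METH fold change, 2 on each side of the edge of the set, the 5 longest runs with gaps up to 50 kb, every member with a gene in the study's list, and the 2 highest in NAc and in SVZ. The study's columns of differential regions were not used.

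Same-numbered CA and DG libraries come from the same rat, by the peak names, so the number pairs them. Their deviations from the group means had correlations of -0.07, -0.16, 0.08 and -0.48 in METH rats 1 to 4 and -0.34, 0.69, 0.59 and 0.44 in saline rats. In SVZ the numbers do not follow the rat. No libraries of a group agreed within sampling noise (lowest chi-square per region 3.43). Each group is 2 to 4 rats. The main model has no term for the rat, so its p-values measure the spread between libraries of a group, pooled over all groups. They do not measure the spread of differences within a rat. Library totals ran from 7.55 M to 19.4 M counts.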

Additional observations from a re-analysis of the deposited data

Results flagged for a closer look

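In groups of 4 libraries, 1 value lay far from the other 3 (Dixon's test at 95%) in 4 of 32 checks of summaries over the members and in 9 of 240 checks of named regions, where chance gives about 1 in 20. The median member level was lowest at 3.09 CPM in CA saline (replicate 4) and highest at 3.78 CPM in CA METH (replicate 3). The share of members with a peak was lowest in DG METH replicate 3, at 36.0%. The total count was highest in NAc METH replicate 4, at 11.8 M.

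Among named members, a single library was far above the rest at chr17:54270773-54271533 in CA METH (4.90 CPM), chr4:159264748-159265397 in CA saline (4.65 CPM), chr5:156899230-156899567 in DG saline (2.75 CPM), the SH3GL2 region chr5:103577920-103578588 in DG saline (2.85 CPM) and in DG METH (6.88 CPM), and chr12:27044735-27045393 in NAc METH (6.87 CPM). It was far below at chr18:20734539-20734914 in CA saline (1.29 CPM), chr10:104145122-104145659 in DG saline (1.01 CPM) and chr17:54225659-54226374 in NAc saline (3.77 CPM).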

How the results depend on the processing

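Of the alternatives, 3 RUVr factors moved most counts: 22 members were called higher in CA METH than DG METH and 90 passed an FDR under 0.05 (edgeR; 8 and 143 were lower), against 4.03% and 15.3% of all OCRs (0.303% and 10.8% lower). The same factors called 289 members for DG against NAc (91 higher, against 5.69%, and 198 lower, against 14.3%), 246 for CA against NAc (104, against 12.9%, and 142, against 9.67%) and 15 for NAc against SVZ. For NAc against SVZ, DESeq2 called 3, the top-tenth share as a covariate 24 and the replicate block by label number 2. For DG against NAc the main count is 100, and DESeq2 called 164. METH libraries alone called 62, tag 1 alone 23, tag 2 alone 0, and the fit without DG METH replicates 1 and 4 27. Over all OCRs the share lower in DG was 6.22% in the main fit, 3.62% with METH libraries alone and 1.27% with tag 1 alone, so calls fell across all OCRs too. Leaving out 1 library gave 41 to 143. The count moved over 1.5 times without DG METH replicate 1, 2 or 4 or NAc METH replicate 1, 2 or 4. For CA against NAc, with 117, tag 1 alone gave 12 and tag 2 alone 0. Over all OCRs the shares lower in CA were 5.15%, 0.477% and 0.00305% in these fits. Leaving out 1 library gave 49 to 145, moved without CA METH replicate 3 or 4 or NAc METH replicate 1, 2 or 4. Members separated in METH libraries were 9 with loess offsets and 17 to 78 with 1 library left out. No shares over all OCRs are given here for the loess count or for any count with 1 library left out, so these counts do not set the members against other OCRs. A pseudocount of 2 kept 605 of the 1000 members, saline libraries of tag 1 alone 200, of tag 2 alone 118, and 1 library less 330 to 601. The cause was not tested in any of these.

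With the replicate block, 0 members were called in CA over DG METH, by label number or by rat. DG against NAc went from 100 to 114 by label number (12 higher, against 1.07%, and 102 lower, against 6.81%) and 88 by rat (7, against 0.776%, and 81, against 5.64%). CA against NAc went from 117 to 141 (45, against 5.69%, and 96, against 5.68%) and 120 (44, against 5.15%, and 76, against 4.81%). The median CA over DG fold change in METH libraries ran from -0.52 (loess offsets) to 0.00 (without DG METH replicates 1 and 4). No filter equals the main fit, since filterByExpr removed nothing. The median standard error of a member in the CA over DG test was 0.50 log2 units, at a median of 16 to 71 counts per library, which limits what 4 libraries a group can show.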
